A study of Homo sapiens with 24 samples.

Results

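Interferon-stimulated genes are the genes that cells switch on when interferon, or viral RNA sensed inside the cell, activates the antiviral programme. An RNA-seq count table of HepG2 cells, an established human liver cancer line, held 34618 genes. The 52 genes described here were chosen by name, with earlier results of these data known, and each had 1 entry in it. They comprise 10 RNA sensors and double-stranded RNA binders, 4 transcription factors, 11 genes of ISG15 conjugation, ubiquitination and ADP-ribosylation, 14 antiviral effectors, 3 antigen-processing genes and 10 other interferon-induced genes. The 3 lines compared were HepG2 with a lentiviral hairpin against SETD2 (shSETD2), which encodes the histone methyltransferase for lysine 36 trimethylation on H3; HepG2 with a hairpin against METTL14 (shMETTL14), a subunit of the m6A methyltransferase; and HepG2 with a non-specific control hairpin (shCtrl). All lines carry a lentivirus and were selected with puromycin at 1 µg/mL, and the labels name 1 hairpin line for each target, with no second hairpin. RNA was taken before actinomycin D (0 h) and 1, 3 and 6 h after its addition at 5 µg/mL, which blocks transcription, with 2 libraries for each of the 12 groups. The design text calls the 2 libraries of a group biological replicates without saying how their cultures were separated. The p-values therefore cover only the spread between these libraries, part of which may be technical.

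Cytosolic helicases of the RIG-I family bind viral or self double-stranded RNA and, through the adaptor MAVS, turn on interferon genes. Secreted interferon then acts through its receptor and the JAK kinases on a complex that includes STAT2 and IRF9 and binds the interferon-stimulated response element in the promoters of its target genes. Hepatocytes respond strongly to type I and type III interferon, and many of these genes keep a low basal level without it.

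The promoters of 43 of the 52 genes were found by symbol or synonym in the RefSeq promoter table (GRCh38.p14), and the 250 bases before the gene start were searched on both strands for the core of the response element, written as GAAA, any 2 bases and GAAA again (TTTC, any 2 bases and TTTC on the other strand; neighbouring matches can overlap). The letters were present in 20 of these 43 promoters (46.5%), against 834 of 27305 promoters of all genes (3.05%). They were present in 11 of the 23 matched genes that differed at 0 h between a knockdown line and shCtrl (47.8%). They were also present in 9 of the 20 other matched genes (45.0%). These others include DDX60, RSAD2, IFI16, IFI44, IFI44L and EPSTI1, which were too low to test. Of the untested genes, DDX60, IFI44, IFI44L and EPSTI1 hold the letters, so the 45.0% does not describe tested genes alone. A match describes the letters of the window and does not show that a factor binds there. The 4 promoters printed here belong to the genes with the largest changes at 0 h among those that hold the letters, read 5′ to 3′ on the strand of the gene, with the matches in capitals.
IFITM1 (chr11:313790-314039, plus strand): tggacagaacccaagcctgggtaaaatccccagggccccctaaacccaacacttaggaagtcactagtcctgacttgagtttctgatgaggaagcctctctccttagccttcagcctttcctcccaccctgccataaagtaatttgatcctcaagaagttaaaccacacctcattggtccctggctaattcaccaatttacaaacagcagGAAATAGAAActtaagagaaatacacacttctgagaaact
IFIT3 (chr10:89327747-89327996, plus strand): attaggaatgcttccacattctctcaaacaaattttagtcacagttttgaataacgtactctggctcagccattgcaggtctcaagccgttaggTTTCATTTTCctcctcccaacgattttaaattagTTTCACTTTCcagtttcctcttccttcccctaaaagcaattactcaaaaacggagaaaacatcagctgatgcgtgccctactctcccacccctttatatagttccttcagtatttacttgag
IFIT1 (chr10:89392373-89392622, plus strand): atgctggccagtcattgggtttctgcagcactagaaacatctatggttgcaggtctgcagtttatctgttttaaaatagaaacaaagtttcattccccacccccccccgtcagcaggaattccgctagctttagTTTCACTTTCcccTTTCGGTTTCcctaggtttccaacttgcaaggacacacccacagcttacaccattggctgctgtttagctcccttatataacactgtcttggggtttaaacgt
IFI27 (chr14:94110486-94110735, plus strand): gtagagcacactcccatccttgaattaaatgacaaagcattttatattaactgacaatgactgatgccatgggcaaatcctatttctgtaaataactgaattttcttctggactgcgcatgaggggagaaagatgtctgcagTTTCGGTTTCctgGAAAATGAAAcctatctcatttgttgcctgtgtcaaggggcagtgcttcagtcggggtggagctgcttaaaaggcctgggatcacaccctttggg

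Short windows around the match nearest the gene start show the same letters in genes that changed differently from one another, in the same build and read on the strand of the gene; a match that crosses the edge of a window is cut there. IFIH1, PARP9 and BST2 appear because they rose in at least 1 knockdown line, IFI6 because it fell in shSETD2 cells, and ISG15 and OAS3 because neither passed the test at 0 h.
IFIH1 (within chr2:162318685-162318934, minus strand): gaatcGAAACAGAAAccaaa
PARP9 (within chr3:122564301-122564550, minus strand): caaagTTTCAGTTTCgcttc
BST2 (within chr19:17405631-17405880, minus strand): AAACTGAAACTGAAAaccta
IFI6 (within chr1:27672193-27672442, minus strand): gtgcaGAAATAGAAActccg
ISG15 (within chr1:1013247-1013496, plus strand): AAAGGGAAACCGAAActgaa
OAS3 (within chr12:112938224-112938473, plus strand): ggcggGAAAACGAAAcc

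The libraries held 18.3 to 31.4 M counts. At 0 h SETD2 averaged 86.1 ± 6.1 CPM in shSETD2 cells and 130 ± 1.3 CPM in shCtrl cells, and METTL14 averaged 14.5 ± 0.8 CPM in shMETTL14 cells and 29.7 ± 0.5 CPM in shCtrl cells (SD, n = 2 each; CPM is the count relative to the TMM-scaled library total). SETD2 thus fell by 0.59 and METTL14 by 1.03 on the log2 scale in its own knockdown line. All 8 hepatocyte markers passed the low-count filter, which was applied to all libraries together. Their summed level at 0 h was 99038 to 99994 CPM in shSETD2, 58848 to 59057 CPM in shMETTL14 and 51518 to 51702 CPM in shCtrl libraries. Of the 11 blood and immune markers, PTPRC, CD3E and MS4A1 had no count in any library. The summed level of that list was 1373 to 1379 CPM in shSETD2, 2075 to 2134 CPM in shMETTL14 and 1048 to 1090 CPM in shCtrl libraries, nearly all of it the lysozyme gene LYZ. Markers of HEK293T cells, in which the lentivirus was made, summed to 5.73 to 6.10 CPM in shSETD2, 9.24 to 9.39 CPM in shMETTL14 and 11.5 to 12.9 CPM in shCtrl libraries. Markers of fibroblasts, endothelium and stellate cells, mostly RELN, summed to 1388 to 1389 CPM in shSETD2, 1512 to 1548 CPM in shMETTL14 and 2369 to 2395 CPM in shCtrl libraries, with DCN and KDR at 0 in all of them. That sum follows RELN, which fell by 0.79 in shSETD2 and by 0.66 in shMETTL14 cells on the log2 scale. Most called markers of this list went the other way. Of the 5 tested, 2 rose and 1 fell in shSETD2 cells, and 4 rose and 1 fell in shMETTL14 cells. Among all genes tested, 40.6% and 48.1% were called either way. In bulk RNA, fewer cells of a type and less RNA per cell cannot be told apart.

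Most of the interferon-stimulated genes were read at a low basal level. Per kilobase of exon, LGALS3BP, which encodes a secreted glycoprotein, stood highest in untreated cells, with 87.3 RPKM in shSETD2, 143 RPKM in shMETTL14 and 87.6 RPKM in shCtrl cells (means of 2 libraries). The RNA editor ADAR followed in shCtrl cells with 42.1 RPKM, the membrane protein gene IFITM3 with 40.6 RPKM and the ubiquitin ligase TRIM25 with 19.1 RPKM. At the other end of the 43 genes that passed the low-count filter, OAS2 averaged 0.0271 RPKM and HERC5 0.0706 RPKM in shCtrl cells. The other 9 were too low to test: DDX60, OASL, IRF7, IFIT2, RSAD2, IFI16, IFI44, IFI44L and EPSTI1. Among these the highest count in any of the 24 libraries was 10, for the helicase-like DDX60, and IFI44 never exceeded 1 count. Several classical markers of strong interferon signalling, among them RSAD2, IFI44 and IRF7, were thus at or near the detection limit in every line. Of 14 interferon genes themselves, 13 had no count in any library, which allows up to 3 counts a library, or 0.0955 to 0.164 CPM before scaling, and IFNA5 had 3 counts in all.

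In untreated shMETTL14 cells, interferon-stimulated genes were more often higher than lower than in shCtrl cells. Of the 43 tested, 22 rose and 1 fell at an adjusted p below 0.05 in edgeR's quasi-likelihood test with Benjamini-Hochberg adjustment over 14887 genes. Among all genes tested 23.1% rose and 25.1% fell in this comparison (48.1% either way), against 51.2% and 2.33% of the 43. The median log2 fold change was 0.45 over the 43 genes and -0.01 over all genes tested. Of the 23 calls, 3 were lost in a setting other than leaving out a library. Fewer genes were called higher without any 1 of the 4 libraries compared, as given below. The genes that rose included the RNA sensors DDX58 and IFIH1, the transcription factor STAT2, and the effectors IFITM1, IFIT3, BST2 and MX1. The gene that fell was ADAR, which edits double-stranded RNA, a call that several settings lost. The summed blood and immune markers, nearly all LYZ, were higher in the same libraries while PTPRC, CD3E and MS4A1 were at 0. Of the 5 tested markers of that list, LYZ and CD14 rose and 3 were not called. The part of the marker lists in these results was not tested.

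In untreated shSETD2 cells the picture was mixed. Relative to shCtrl cells 14 of the 43 rose and 5 fell, while 21.6% of all genes tested rose and 18.9% fell (40.6% either way). With scaling by library size alone, which moves the median of all genes from 0.02 to -0.14 on the log2 scale, the split was 11 higher and 9 lower. It was 9 and 8 with limma on log2(RPKM + 0.1), 8 and 5 without the first shCtrl library, and 3 were lower without either shSETD2 library. The median log2 fold change of the 43 was 0.11, against 0.02 over all genes tested. USP18, IFIT3, IFIT1, XAF1 and IFIH1 rose the most. TRIM22, IFI6 and IFITM2 fell the most, and DDX58 and UBE2L6 fell by less. Both comparisons share the 2 shCtrl libraries at 0 h, so their lists of changed genes are not independent.

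Set directly against shMETTL14 cells, shSETD2 cells had 4 of the 43 genes higher and 17 lower. Of all genes tested, 29.2% were higher and 23% lower in this comparison (52.2% either way), and scaling by library size alone gave 1 higher and 26 lower, with the median of all genes moving from 0.03 to -0.18. The median log2 difference was -0.30 over the 43 genes and 0.03 over all genes tested. The 4 higher in shSETD2 cells were USP18, DTX3L, SAMHD1 and ADAR, and each of these calls was lost in at least 1 alternative. With limma on log2(RPKM + 0.1) none of the 4 was called, and ADAR had -0.07 (adjusted p = 0.249).

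**Figure D1:**
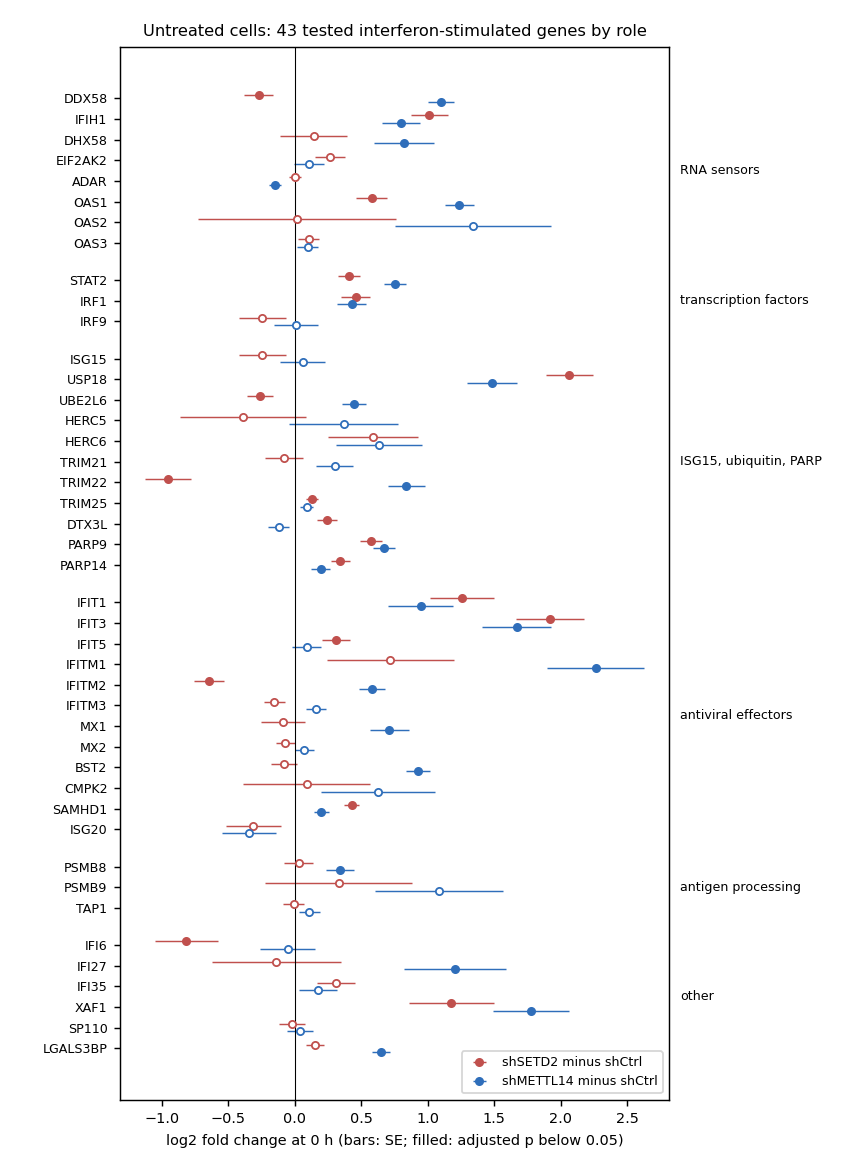
Log2 fold change at 0 h of the 43 tested interferon-stimulated genes, grouped by role, in shSETD2 cells (red) and shMETTL14 cells (blue), each relative to shCtrl cells; bars are standard errors and filled symbols have an adjusted p below 0.05. Most blue symbols lie right of 0, with 22 genes called higher and 1 lower, while red symbols lie on both sides, with 14 called higher and 5 lower.

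The RNA sensors differed from one another and between the lines. DDX58, which encodes the sensor RIG-I, stood at 11.999 and 12.775 CPM in shSETD2 libraries, at 31.0 and 33.2 CPM in shMETTL14 libraries, and at 13.8 and 16.1 CPM in shCtrl libraries. Both shMETTL14 libraries lay above all others, and both shSETD2 libraries below both shCtrl libraries. DDX58 fell in shSETD2 cells by 0.27 on the log2 scale (SE 0.11, adjusted p = 0.0444) and rose in shMETTL14 cells by 1.10 (SE 0.10, adjusted p = 3.24e-09). The difference of shSETD2 from shMETTL14 cells was -1.37 (SE 0.10, adjusted p = 9.77e-11). The shSETD2 call was lost when either shSETD2 library or the second shCtrl library was left out, with adjusted p between 0.0786 and 0.235, and with a filter of 5 CPM in 2 libraries (adjusted p = 0.0507).

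IFIH1, which encodes the sensor MDA5, stood at 9.56 and 9.19 CPM in shSETD2 libraries, at 8.08 and 8.11 CPM in shMETTL14 libraries, and at 5.34 and 4.04 CPM in shCtrl libraries. All 4 knockdown libraries lay above both shCtrl libraries. Its log2 fold change was 1.01 in shSETD2 cells (SE 0.14, adjusted p = 4.38e-06) and 0.80 in shMETTL14 cells (SE 0.14, adjusted p = 7.23e-05). The shSETD2 minus shMETTL14 difference of 0.21 (SE 0.13) did not pass the test. Both helicases, DDX58 and IFIH1, thus rose in shMETTL14 cells. In shSETD2 cells IFIH1 rose, while DDX58 had a small fall whose call several alternatives lost.

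DHX58, which encodes LGP2, the family member without signalling domains of its own, stood at 1.90 and 2.06 CPM in shSETD2 libraries, at 3.53 and 2.75 CPM in shMETTL14 libraries, and at 1.86 and 1.72 CPM in shCtrl libraries. It rose in shMETTL14 cells by 0.82 (SE 0.23, adjusted p = 0.00455), a call lost without the first shMETTL14 library (adjusted p = 0.144) or the second shCtrl library (adjusted p = 0.0796). OAS1, an oligoadenylate synthetase that activates RNase L, stood at 7.39 and 6.88 CPM in shSETD2 libraries, at 11.3 and 11.3 CPM in shMETTL14 libraries, and at 4.70 and 4.86 CPM in shCtrl libraries. The 3 lines did not overlap and lay in the order shMETTL14, shSETD2, shCtrl. OAS1 rose in both knockdown lines, by 0.58 in shSETD2 cells (SE 0.12, adjusted p = 0.000352) and by 1.24 in shMETTL14 cells (SE 0.11, adjusted p = 2.86e-09).

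Its neighbours on chromosome 12 gave other values. OAS3 stood at 27.4 and 28.5 CPM in shSETD2 libraries, at 28.3 and 27.2 CPM in shMETTL14 libraries, and at 25.4 and 26.5 CPM in shCtrl libraries. The log2 fold changes of OAS3, 0.11 in shSETD2 and 0.10 in shMETTL14 cells (SE 0.08 each), did not pass the test. OAS2 stood at 0.10 and 0.21 CPM in shSETD2 libraries, at 0.34 and 0.42 CPM in shMETTL14 libraries, and at 0.16 and 0.14 CPM in shCtrl libraries, and passed in no comparison. The annotated spans of the 3 genes lie within chr12:113344582-113449528 (GRCh37 in the deposited table), the gap between OAS1 and OAS3 being a few kilobases.

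EIF2AK2 and ADAR, the 2 double-stranded RNA binders with the highest counts, moved little. EIF2AK2, which encodes the kinase PKR that halts translation, stood at 109 and 112 CPM in shSETD2 libraries, at 95.96 and 101.3 CPM in shMETTL14 libraries, and at 93.5 and 89.8 CPM in shCtrl libraries. Its log2 fold changes of 0.26 and 0.11 did not pass the test. ADAR stood at 300 and 313 CPM in shSETD2 libraries, at 280 and 274 CPM in shMETTL14 libraries, and at 305 and 308 CPM in shCtrl libraries. It fell in shMETTL14 cells by 0.15 (SE 0.05, adjusted p = 0.011), a call lost with scaling by library size alone. Of the 8 tested sensors, 2 rose and 1 fell in shSETD2 cells (median 0.12), and 4 rose and 1 fell in shMETTL14 cells (median 0.81), against 40.6% and 48.1% of all genes called either way.

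Of the transcription factors, STAT2, a subunit of the factor that binds the response element, stood at 42.1 and 37.6 CPM in shSETD2 libraries, at 51.4 and 50.2 CPM in shMETTL14 libraries, and at 29.3 and 31.0 CPM in shCtrl libraries. The lines did not overlap. STAT2 rose by 0.40 in shSETD2 cells (SE 0.08, adjusted p = 0.000447) and by 0.75 in shMETTL14 cells (SE 0.08, adjusted p = 9.35e-08). The shSETD2 call was lost without the first shCtrl library (adjusted p = 0.0505). Its partner IRF9 passed in no comparison, with values of 2.18 to 2.96 CPM over the 6 libraries. Another entry on the same strand overlaps IRF9 over 5513 bases and averaged 39.6 counts a library. How the counting split reads between IRF9 and that entry is uncertain, at 0 h and under actinomycin D. IRF1, an inducible activator with a short-lived mRNA, rose by 0.46 in shSETD2 and by 0.43 in shMETTL14 cells (SE 0.11 each). Its call in shMETTL14 cells was lost without any 1 of the 4 libraries compared (adjusted p 0.0562 to 0.0718), and its call in shSETD2 cells without the first shCtrl library (adjusted p = 0.054) and with limma on log2(RPKM + 0.1), where it had 0.27 (adjusted p = 0.123).

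**Figure D2:**
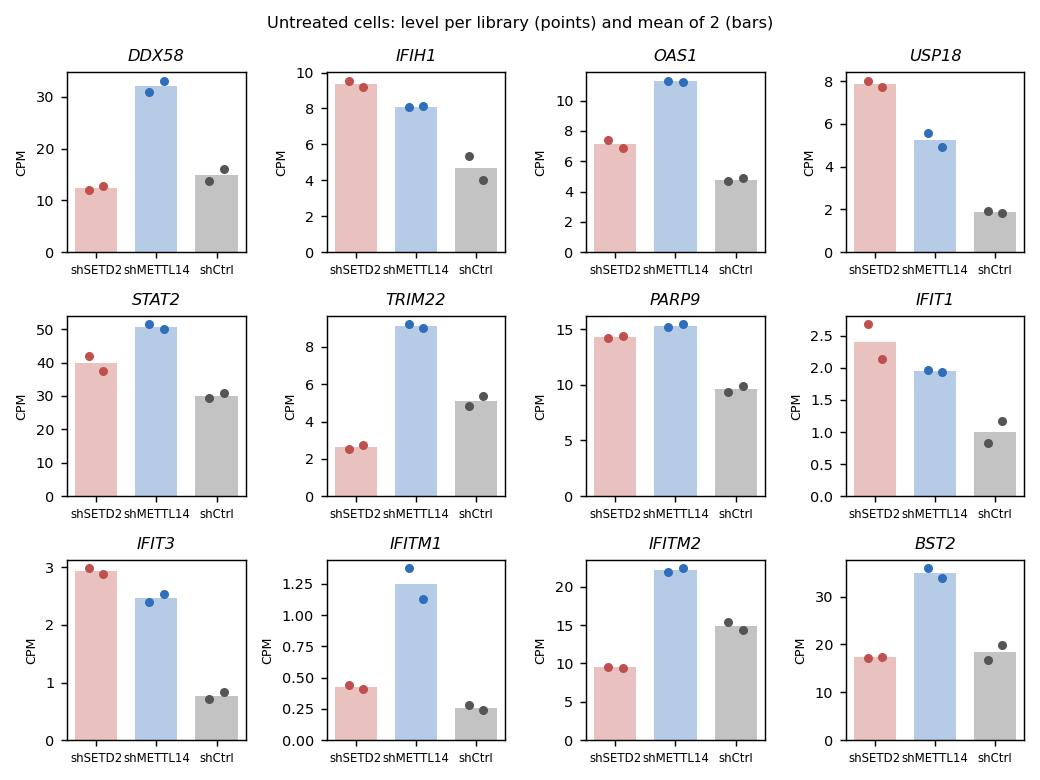
Level at 0 h in CPM of 12 interferon-stimulated genes in shSETD2 (red), shMETTL14 (blue) and shCtrl (grey) cells; points are single libraries and bars the mean of 2, on axes that start at 0. DDX58, TRIM22, IFITM2 and BST2 are highest in shMETTL14 cells, whereas USP18, IFIT1 and IFIT3 have their highest means in shSETD2 cells. For IFIT1 and IFIT3 the difference of shSETD2 from shMETTL14 cells did not pass the test.

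Of the 11 genes of ISG15 conjugation, ubiquitination and ADP-ribosylation, 5 rose and 2 fell in shSETD2 cells, and 5 rose and none fell in shMETTL14 cells, against 40.6% and 48.1% of all genes called either way. USP18, the protease that removes ISG15 and restrains the interferon receptor, stood at 8.03 and 7.71 CPM in shSETD2 libraries, at 5.59 and 4.90 CPM in shMETTL14 libraries, and at 1.94 and 1.83 CPM in shCtrl libraries. The lines did not overlap, and both knockdown lines lay far above shCtrl. USP18 was 4.18-fold higher in shSETD2 cells (log2 fold change 2.07, SE 0.18, adjusted p = 2.74e-09) and 2.79-fold higher in shMETTL14 cells (1.48, SE 0.19, adjusted p = 8.68e-07). Reads can also match USP41, a near-identical copy, to which 2 to 8 counts a library were assigned at 0 h.

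ISG15 itself, the ubiquitin-like modifier, stood at 3.59 and 4.24 CPM in shSETD2 libraries, at 4.84 and 4.76 CPM in shMETTL14 libraries, and at 4.15 and 5.04 CPM in shCtrl libraries. It passed in no comparison at 0 h. UBE2L6, its conjugating enzyme, stood at 10.9 and 11.2 CPM in shSETD2 libraries, at 18.01 and 18.13 CPM in shMETTL14 libraries, and at 13.95 and 12.62 CPM in shCtrl libraries. It fell in shSETD2 cells by 0.26 (SE 0.10, adjusted p = 0.0364) and rose in shMETTL14 cells by 0.45 (SE 0.09, adjusted p = 0.000322). The fall was lost without either shSETD2 library (adjusted p 0.0892 and 0.155) or the first shCtrl library (adjusted p = 0.0713), with no filter on low counts (adjusted p = 0.0686) and with the GC trend removed (adjusted p = 0.0914). The rise was lost without the second shCtrl library (adjusted p = 0.0616).

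TRIM22, a ubiquitin ligase with antiviral activity, stood at 2.51 and 2.76 CPM in shSETD2 libraries, at 9.21 and 9.03 CPM in shMETTL14 libraries, and at 4.82 and 5.35 CPM in shCtrl libraries. It had opposite changes in the 2 knockdown lines, -0.96 in shSETD2 cells (SE 0.17, adjusted p = 9.46e-05) and 0.84 in shMETTL14 cells (SE 0.14, adjusted p = 2.21e-05). The direct difference of shSETD2 from shMETTL14 cells was -1.80 (SE 0.15, adjusted p = 1.69e-09), the largest among the 43 genes. The span of TRIM22 lies within that of TRIM5 on the other strand, and none of the sources used here says whether the counting used strand. TRIM5 fell by 0.47 in shSETD2 cells and had -0.18 (SE 0.09, adjusted p = 0.0981) in shMETTL14 cells.

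The ADP-ribosyltransferases PARP9 and PARP14 and the PARP9 partner DTX3L are neighbours on chromosome 3. PARP9 stood at 14.2 and 14.4 CPM in shSETD2 libraries, at 15.2 and 15.4 CPM in shMETTL14 libraries, and at 9.33 and 9.90 CPM in shCtrl libraries. It rose by 0.57 in shSETD2 and by 0.67 in shMETTL14 cells, and PARP14 rose by 0.34 in shSETD2 and by 0.19 in shMETTL14 cells, the second call being lost without any 1 of the 4 libraries compared (adjusted p 0.29 to 0.657) and the first without the first shCtrl library (adjusted p = 0.085). With limma the shSETD2 value of PARP14 was 0.18 on log2(RPKM + 0.1) and 0.15 on log2(RPKM + 1), neither called (adjusted p = 0.0774 and 0.0504). DTX3L rose by 0.24 in shSETD2 cells (SE 0.08, adjusted p = 0.0144) and had -0.12 (SE 0.08) in shMETTL14 cells, which did not pass. The rise of DTX3L and that of TRIM25 in shSETD2 cells were lost under several scalings. DTX3L and PARP9 overlap by 340 bases on opposite strands, so reads there are uncertain.

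Of the 12 tested antiviral effectors, 4 rose and 1 fell in shSETD2 cells and 7 rose and none fell in shMETTL14 cells, against the same background. The IFIT proteins bind foreign RNA and block its translation. IFIT3 stood at 2.98 and 2.88 CPM in shSETD2 libraries, at 2.403 and 2.540 CPM in shMETTL14 libraries, and at 0.71 and 0.83 CPM in shCtrl libraries. IFIT1 stood at 2.68 and 2.14 CPM in shSETD2 libraries, at 1.97 and 1.94 CPM in shMETTL14 libraries, and at 0.83 and 1.17 CPM in shCtrl libraries. For both genes all knockdown libraries lay above both shCtrl libraries. The shSETD2 minus shMETTL14 differences, 0.25 for IFIT3 (adjusted p = 0.297) and 0.31 for IFIT1 (adjusted p = 0.209), did not pass the test.

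IFIT3 rose by 1.92 in shSETD2 cells (SE 0.26, adjusted p = 2.23e-06) and by 1.67 in shMETTL14 cells (SE 0.26, adjusted p = 1.4e-05). IFIT1 rose by 1.26 in shSETD2 cells (SE 0.24, adjusted p = 0.000196) and by 0.95 in shMETTL14 cells (SE 0.25, adjusted p = 0.00298). The shMETTL14 call of IFIT1 was lost without the first shCtrl library (adjusted p = 0.0887). These rest on few reads, 18 and 24 counts of IFIT3 and 21 and 34 counts of IFIT1 in the shCtrl libraries. Both genes also lie within the annotated span of LIPA, a lysosomal lipase gene on the other strand, which rose by 1.80 in shSETD2 cells and by 0.72 in shMETTL14 cells (SE 0.08 each) and had 1510 and 1699 counts in the shCtrl libraries. The part of LIPA reads in the IFIT1 and IFIT3 counts was not tested. IFIT5, which lies outside that span, stood at 10.0 and 11.5 CPM in shSETD2 libraries, at 8.49 and 9.91 CPM in shMETTL14 libraries, and at 8.58 and 8.69 CPM in shCtrl libraries, and rose by 0.31 in shSETD2 cells (SE 0.11, adjusted p = 0.0231), a call that several settings lost.

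The IFITM genes encode membrane proteins that restrict virus entry and lie side by side on chromosome 11. IFITM2 stood at 9.56 and 9.40 CPM in shSETD2 libraries, at 21.97 and 22.40 CPM in shMETTL14 libraries, and at 15.4 and 14.3 CPM in shCtrl libraries. The lines did not overlap, with shSETD2 lowest and shMETTL14 highest. IFITM2 fell by 0.65 in shSETD2 cells (SE 0.11, adjusted p = 5.01e-05) and rose by 0.58 in shMETTL14 cells (SE 0.10, adjusted p = 3.91e-05). IFITM1 stood at 0.44 and 0.41 CPM in shSETD2 libraries, at 1.37 and 1.13 CPM in shMETTL14 libraries, and at 0.28 and 0.24 CPM in shCtrl libraries. It rose in shMETTL14 cells by 2.26 (SE 0.37, adjusted p = 2.12e-05), on 44 and 32 counts in shMETTL14 and 7 counts in each shCtrl library.

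IFITM3 stood at 43.5 and 42.1 CPM in shSETD2 libraries, at 53.5 and 53.2 CPM in shMETTL14 libraries, and at 48.2 and 47.2 CPM in shCtrl libraries. It did not pass against shCtrl in either line but was lower in shSETD2 than in shMETTL14 cells, by -0.32 (SE 0.08, adjusted p = 0.00145). The IFITM genes are near-identical in part, and the entry of IFITM1 lies wholly within that of IFITM2, so how the authors' counting split their reads is uncertain.

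BST2, the tetherin that holds budding virions at the cell surface, stood at 17.2 and 17.4 CPM in shSETD2 libraries, at 35.9 and 33.8 CPM in shMETTL14 libraries, and at 16.8 and 19.8 CPM in shCtrl libraries. Only the shMETTL14 libraries stood apart, with a rise of 0.92 (SE 0.09, adjusted p = 1.49e-08). MX1, a dynamin-like antiviral GTPase, had the same order, at 2.10 and 2.76 CPM in shSETD2 libraries, at 4.43 and 3.92 CPM in shMETTL14 libraries, and at 2.25 and 2.83 CPM in shCtrl libraries, and rose by 0.71 in shMETTL14 cells (SE 0.15, adjusted p = 0.000363). MX2, its neighbour, passed in no comparison, with 32.8 to 37.4 CPM over the 6 libraries. SAMHD1, which depletes nucleotides needed by retroviruses, rose by 0.43 in shSETD2 and by 0.20 in shMETTL14 cells, the second call being lost without any 1 of the 4 libraries compared (adjusted p 0.234 to 0.4). ISG20 and CMPK2 passed in no comparison at 0 h.

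Among the antigen-processing genes the immunoproteasome subunit PSMB8 rose in shMETTL14 cells by 0.34 (SE 0.11, adjusted p = 0.0121), a call lost without the first shMETTL14 library or either shCtrl library (adjusted p 0.151 to 0.384), while PSMB9 and TAP1, whose entries overlap, passed in no comparison. XAF1, a proapoptotic interferon target, stood at 1.32 and 1.81 CPM in shSETD2 libraries, at 2.53 and 2.15 CPM in shMETTL14 libraries, and at 0.71 and 0.66 CPM in shCtrl libraries. It rose by 1.18 in shSETD2 cells (SE 0.32, adjusted p = 0.00489) and by 1.78 in shMETTL14 cells (SE 0.29, adjusted p = 2.18e-05). The shSETD2 call was lost without the second library of either line (adjusted p 0.0652 and 0.0657). IFI6, a small mitochondrial and endoplasmic reticulum protein gene, stood at 2.24 and 2.10 CPM in shSETD2 libraries, at 3.59 and 3.81 CPM in shMETTL14 libraries, and at 4.07 and 3.62 CPM in shCtrl libraries. It fell in shSETD2 cells by 0.82 (SE 0.23, adjusted p = 0.00735).

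LGALS3BP rose in shMETTL14 cells by 0.65 (SE 0.07, adjusted p = 6.06e-08), with 431 and 428 CPM in shMETTL14 and 279 and 269 CPM in shCtrl libraries. IFI27 rose there by 1.20 (SE 0.38, adjusted p = 0.013) on 28 and 21 counts in shMETTL14 and 6 and 13 counts in shCtrl libraries, a call lost without the first library of either line. IFI35 and SP110 passed in no comparison at 0 h. The calls that held under every alternative that tested the gene numbered 10 of 19 for shSETD2 against shCtrl, 14 of 23 for shMETTL14 against shCtrl and 12 of 21 for shSETD2 against shMETTL14.

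Genes around the core set were read from lists of the same pathway. Calls of genes on these lists were not checked under the alternatives, which were read for the core set alone. Of 11 receptor, JAK and STAT genes, 4 rose and 1 fell in each knockdown line relative to shCtrl. As for each group and list counted here, this is to be read against all genes tested, of which 21.6% rose and 18.9% fell in shSETD2 cells and 23.1% rose and 25.1% fell in shMETTL14 cells; 5 of 11 is near that background. IFNGR1, a subunit of the interferon gamma receptor, fell in shSETD2 cells by 0.41, and IFNLR1 of the type III receptor rose there by 0.58. IFNAR2 of the type I receptor rose in shMETTL14 cells by 0.42 and STAT3 by 0.32, and IL10RB rose in both lines, by 0.38 in shSETD2 and 0.80 in shMETTL14 cells. Of 10 tested adaptors, kinases and interferon regulatory factors, 1 rose and 3 fell in shSETD2 cells, and 2 rose and none fell in shMETTL14 cells, the first near the 40.6% of all genes called either way. TMEM173, which encodes the DNA-sensing adaptor STING, averaged 1.72 ± 0.13 CPM in shSETD2 cells, 5.67 ± 0.54 CPM in shMETTL14 cells and 3.07 ± 1.2 CPM in shCtrl cells (SD, n = 2 each). It thus fell in the first line by 0.86 and rose in the second by 0.87. Both values rest on shCtrl libraries that differ from each other, with 56 and 114 counts.

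Of 10 tested negative regulators, 2 rose and 1 fell in shSETD2 cells, and 2 rose and 4 fell in shMETTL14 cells, against 40.6% and 48.1% of all genes called either way. SOCS1, which blocks JAK kinases, averaged 6.71 ± 0.39 CPM in shSETD2 cells, 3.17 ± 0.29 CPM in shMETTL14 cells and 5.23 ± 0.09 CPM in shCtrl cells (SD, n = 2 each). It rose in the first line by 0.36 (adjusted p = 0.0221) and fell in the second by 0.72 (adjusted p = 0.000145). The phosphatase PTPN2 fell in shMETTL14 cells by 0.57, and PTPN11 fell in both lines, by 0.38 in shSETD2 and by 0.36 in shMETTL14 cells.

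Among 15 tested entries for guanylate-binding proteins, MHC class I genes and their regulators, 6 rose and 1 fell in shSETD2 cells, and 8 rose and 3 fell in shMETTL14 cells, against 40.6% and 48.1% of all genes called either way. NLRC5, the activator of MHC class I genes, averaged 2.38 ± 0.22 CPM in shSETD2 cells, 9.78 ± 1.2 CPM in shMETTL14 cells and 1.41 ± 0.24 CPM in shCtrl cells (SD, n = 2 each). GBP2 averaged 3.73 ± 0.09 CPM in shSETD2 cells, 15.2 ± 0.63 CPM in shMETTL14 cells and 3.81 ± 0.47 CPM in shCtrl cells. NLRC5 rose by 2.80 and GBP2 by 1.99 in shMETTL14 cells, and both were lower in shSETD2 than in shMETTL14 cells by about the same amount, -2.03 each. GBP1 rose in shSETD2 cells by 1.34. GBP3 rose in both knockdown lines, on 38 and 24 counts in shSETD2, 45 and 45 counts in shMETTL14, and 3 and 1 counts in shCtrl libraries, too few in shCtrl for a fold change. The chemokine gene CXCL9 had no count in any library.

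Under actinomycin D the interferon-stimulated genes, like all genes tested, split into those lost faster than the average RNA and those lost more slowly. Because the table holds no spike-in entries, a slope here is the change of CPM in log2 units per hour relative to the rest of the RNA, over the means at 0, 1, 3 and 6 h. The slope was positive in 20 and negative in 13 of the 43 genes in shSETD2 cells, positive in 19 and negative in 13 in shMETTL14 cells, and positive in 18 and negative in 12 in shCtrl cells. Over all genes tested 34.2% were positive and 36.2% negative in shSETD2 cells (70.4% in all), 38.2% and 34.8% in shMETTL14 cells (73.1%), and 37.8% and 33.2% in shCtrl cells (71.1%). Scaling by library size alone gave 15 positive and 15 negative in shSETD2 cells, and 11 positive and 15 negative in each of the other lines. Of all 14887 genes it then called 3247 positive and 6945 negative in shSETD2 cells, 3050 and 7432 in shMETTL14 cells, and 3360 and 6788 in shCtrl cells. The same direction was called in each of the 3 lines for 15 positive and 11 negative genes, against 29.2% and 29% of all genes tested.

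Fast relative loss was seen in genes of different roles. IFIT5 fell to 14.6% of its 0 h CPM at 6 h in shSETD2 cells, 13.4% in shMETTL14 cells and 12.1% in shCtrl cells, with slopes of -0.47, -0.50 and -0.51 (SE 0.03 each). IRF1 stood at 14.1% of its 0 h CPM at 6 h in shSETD2 cells, 19.8% in shMETTL14 cells and 13.1% in shCtrl cells. TRIM21, an antibody-binding ubiquitin ligase, stood at 17.9%, 20.3% and 17.1% in the same order of lines. None of these 3 had a slope that differed between lines at an adjusted p below 0.05. DTX3L, IFIT1, DDX58, IRF9 and IFIH1 also had negative slopes in each line, between -0.39 and -0.17 apart from IFIT1 in shMETTL14 cells at -0.41 (SE 0.06).

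PARP9, PARP14 and TRIM25 also had negative slopes in each line, between -0.11 and -0.02 per hour. Over the first 3 h those of TRIM25 took the other sign in each line, as did those of PARP9 and PARP14 in shMETTL14 cells. IFITM2 gained relative level in each line and stood at 214% of its 0 h CPM at 6 h in shSETD2 cells, 267% in shMETTL14 cells and 225% in shCtrl cells. BST2 stood at 231%, 238% and 215% in the same order, LGALS3BP at 207%, 228% and 197%, and STAT2 at 172%, 181% and 211%. The sensors were divided between both classes, since DDX58 and IFIH1 lost relative level while OAS3 and ADAR gained it, OAS3 with a slope of 0.13 in each line (SE 0.01). The gain of ADAR in shMETTL14 cells did not hold with scaling by library size alone.

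**Figure D3:**
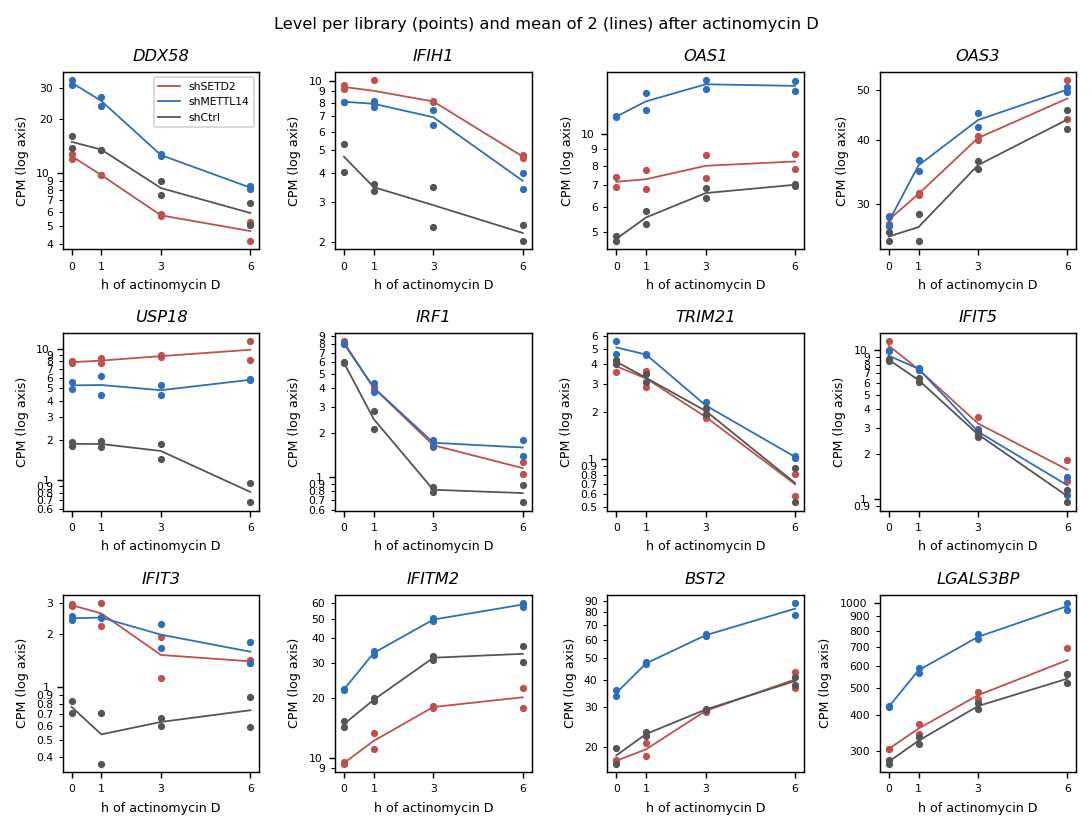
Level in CPM (log axis) of 12 interferon-stimulated genes at 0, 1, 3 and 6 h of actinomycin D in shSETD2 (red), shMETTL14 (blue) and shCtrl (grey) cells; points are single libraries and lines join the means of 2. DDX58, IRF1, TRIM21 and IFIT5 fall in all lines, OAS3, IFITM2, BST2 and LGALS3BP gain relative level, and USP18 falls only in the shCtrl libraries, where the level at 6 h is 43.04% of that at 0 h.

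The rate of relative loss differed between lines for few of these genes. Relative to shCtrl cells, 1 of the 43 slopes was higher and none lower in shSETD2 cells, against 1.49% and 6.45% of all genes tested (7.94% either way). In shMETTL14 cells 1 was higher and 1 lower, against 1.85% and 3.35% of all genes tested (5.21% either way). Between shSETD2 and shMETTL14 cells 2 were higher and 1 lower in shSETD2 cells, against 3.2% and 6.4% of all genes tested (9.61% either way). Without the second shSETD2 library at 6 h, 7 slopes were higher and 3 lower in shSETD2 than in shCtrl cells, while over all 15265 genes then tested 1212 were higher and 2615 lower. The 2 libraries of that group differed more from each other than those of any other group. Over all genes with a known transcript GC content, slope differences followed that content. Spearman's rho was 0.44 for shSETD2 minus shCtrl, 0.11 for shMETTL14 minus shCtrl and 0.33 for shSETD2 minus shMETTL14. Removing this trend raised the number of interferon-stimulated genes called lower in each comparison, as given below. None of the differences described next was called in every alternative. The median slope difference was 0.00 for shSETD2 minus shCtrl, against -0.01 over all genes tested.

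USP18 accounted for both positive differences from shCtrl. At 6 h it stood at 11.4 and 8.22 CPM in shSETD2 libraries, at 5.85 and 5.72 CPM in shMETTL14 libraries, and at 0.67 and 0.95 CPM in shCtrl libraries. Relative to the means at 0 h, this was 124% in shSETD2 cells, 110% in shMETTL14 cells and 43.04% in shCtrl cells. The slope difference was 0.26 per hour for shSETD2 minus shCtrl (SE 0.06, adjusted p = 0.00448) and 0.23 for shMETTL14 minus shCtrl (SE 0.06, adjusted p = 0.0189). Over 0, 1 and 3 h alone neither passed (adjusted p = 0.639 and 0.969), and without the first shCtrl library at 6 h neither did (adjusted p = 0.0548 and 0.176). The shMETTL14 difference was also lost without the first shMETTL14 library at 6 h (adjusted p = 0.0553).

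DDX58 fell faster in shMETTL14 cells, where it was also highest before treatment. It stood at 8.39 and 8.11 CPM at 6 h in shMETTL14 libraries and at 5.08 and 6.80 CPM in shCtrl libraries, 25.7% and 39.8% of the 0 h means. The slope difference was -0.10 per hour (SE 0.03, adjusted p = 0.0387), and shSETD2 minus shMETTL14 gave 0.10 (SE 0.03, adjusted p = 0.0421). The first was lost with RLE size factors (adjusted p = 0.0592) and without most single libraries. UBE2L6 gained more in shSETD2 than in shMETTL14 cells, by 0.07 per hour (SE 0.02, adjusted p = 0.0296), and PARP14 fell faster there, by -0.05 (SE 0.02, adjusted p = 0.0485).

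IFIT3, with the second largest rise at 0 h in shSETD2 cells, had slopes of -0.19 (SE 0.04) in shSETD2 cells, -0.12 (SE 0.04) in shMETTL14 cells and 0.02 (SE 0.06) in shCtrl cells. The slope difference for shSETD2 minus shCtrl, -0.21 (SE 0.08), did not pass the test (adjusted p = 0.088). IFIH1, which rose in both lines at 0 h, had almost the same slope in each line, -0.17 in shSETD2, -0.19 in shMETTL14 and -0.17 in shCtrl cells (SE 0.03 each). Its slope difference from shCtrl was 0.00 in shSETD2 cells (SE 0.04) and -0.03 in shMETTL14 cells (SE 0.04), neither past the test.

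**Figure D4:**
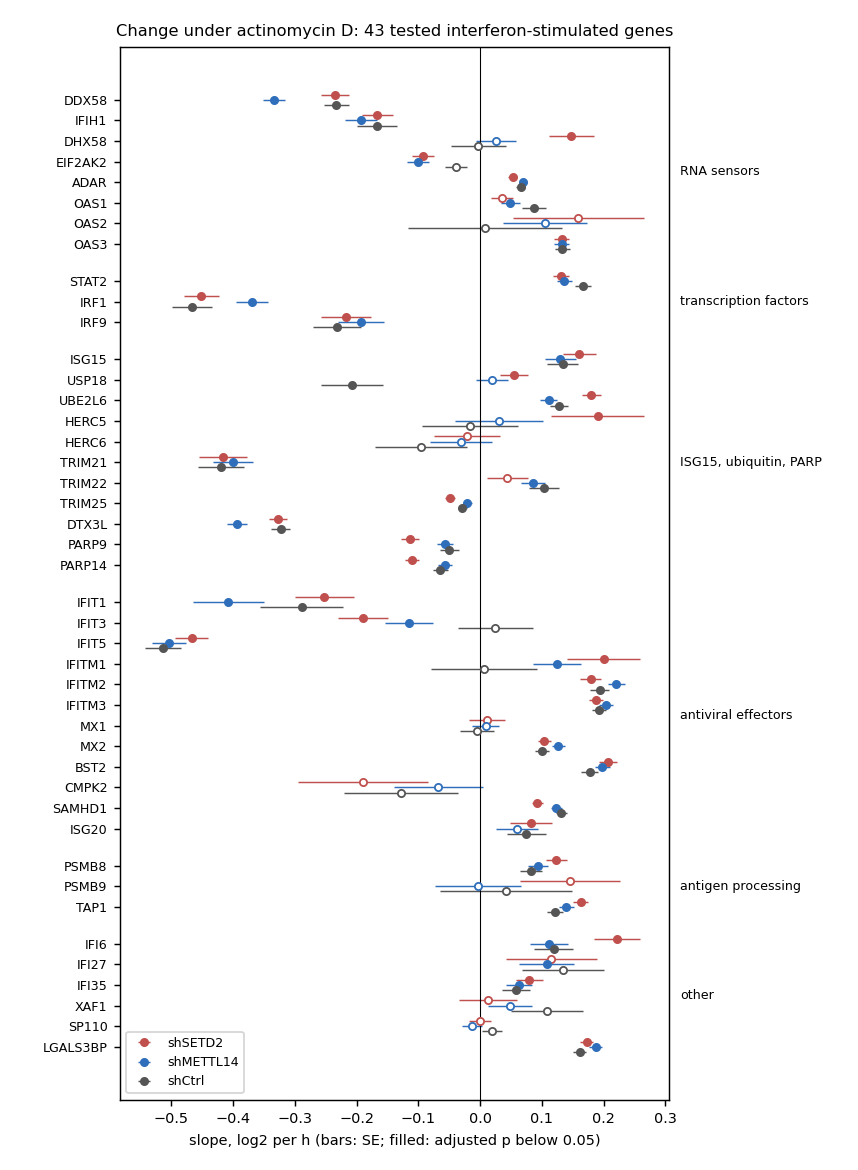
Slope of log2 CPM per hour of actinomycin D for the 43 tested interferon-stimulated genes, by role, in shSETD2 (red), shMETTL14 (blue) and shCtrl (grey) cells; bars are standard errors and filled symbols have an adjusted p below 0.05. The 3 symbols of many genes lie close together. USP18 has slopes of 0.05 in shSETD2, 0.02 in shMETTL14 and -0.21 in shCtrl cells, and IFIT3, whose differences did not pass the test, -0.19, -0.12 and 0.02.

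The authors' deposited table of RNA half-lives lists 15 of the 52 genes, with 1 value per line and no error. In the authors' deposited table DDX58 has 2.71 h in shSETD2 cells, 2.15 h in shMETTL14 cells and 3.43 h in shCtrl cells. IFIH1 has 3.35 h, 3.15 h and 4.30 h there in the same order of lines, and EIF2AK2 4.34 h, 4.45 h and 9.41 h. IFIT3 has 3.17 h in shSETD2 cells, 4.26 h in shMETTL14 cells and 15.2 h in shCtrl cells in the authors' deposited table. IFIT5, IRF1 and TRIM21 all have values between 1.60 and 1.96 h in it.

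The median over the 15 genes in the authors' deposited table is 3.17 h in shSETD2, 3.25 h in shMETTL14 and 4.30 h in shCtrl cells, and over all 7772 listed genes 4.13 h, 4.31 h and 6.02 h. Half-lives in the authors' deposited table are shorter than in shCtrl cells for 14 of the 15 genes in each knockdown line (93.3%), and for 88.2% of all listed genes in shSETD2 and 88.8% in shMETTL14 cells. The share of these genes with a shorter half-life is thus near that of all listed genes. USP18, OAS1, STAT2, BST2 and the IFITM genes are not among the 15.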

How the data were processed

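Raw counts and RPKM per gene were deposited by the authors for 24 libraries of HepG2 lines (12 groups of 2). Reads were processed with cutadapt, TopHat and HTSeq 0.6.1p1 on GRCh37, per the submitters' processing notes; the sources used here name no annotation release or strand setting. The deposited RPKM values are relative to each library's total. Half-lives (in hours, unit other) come from the authors' deposited table. Totals were 18.3 to 31.4 M counts, and the floors cover counting error only.

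The test on counts was that of edgeR 4.0.16 under R 4.3.3 (TMM scaling, filterByExpr, robust glmQLFit, glmQLFTest, two-sided) with a mean for each of the 12 groups, 12 residual degrees of freedom and Benjamini-Hochberg adjustment over 14887 genes; the threshold was 0.05. Slopes are least-squares slopes of group means on hours. The script was tested on simulated data.

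Members and lists were chosen with earlier results of these data known. Values per library are given for up to 8 called members with the largest difference whose mean reached 1 CPM in a group, plus the sensors; IFITM3, PARP9, STAT2, IFIT5, ISG15, IFI27 and LGALS3BP were added after their values were seen, as was the choice of the short promoter windows. Up to 3 genes with the smallest p are named from each other list. Alternatives were RLE scaling, library size alone, other filters, DESeq2 1.42.0, limma 3.58.1 on log2(RPKM + 0.1) and log2(RPKM + 1), other time windows, the replicate block and leaving out each library; a GC offset and a crossed block were added after seeing the data.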

Additional observations from a re-analysis of the deposited data

Results flagged for a closer look

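Among the 43 tested interferon-stimulated genes the interaction test, adjusted over all genes, called 6 slope differences between lines. For USP18 the slope was 0.26191 log2 units per hour higher in shSETD2 than in shCtrl cells and 0.22724 higher in shMETTL14 than in shCtrl cells, both resting on the low shCtrl values at 6 h. For DDX58 the difference was -0.10045 for shMETTL14 minus shCtrl and 0.098856 for shSETD2 minus shMETTL14, and these 2 contrasts share the shMETTL14 libraries. For shSETD2 minus shMETTL14 it was 0.069527 for UBE2L6 and -0.053183 for PARP14.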

How the results depend on the processing

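Counts are given as higher and lower of the tested members. For shSETD2 against shCtrl at 0 h (14 and 5), 9 were lower with library-size scaling, 9 higher and 8 lower with limma on log2(RPKM + 0.1), and 9 lower on log2(RPKM + 1). For shMETTL14 against shCtrl, 0 were lower with library-size scaling, the 5-CPM filter and both limma fits. For shSETD2 against shMETTL14, library-size scaling gave 1 and 26, and limma 0 higher (+ 0.1) and 1 higher (+ 1). Positive slopes in shCtrl numbered 11 with library-size scaling and both limma fits; in shMETTL14 they numbered 11 with library-size scaling and 10 with both limma fits, and 8 were negative over 0 to 3 h.

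Slope differences, shSETD2 minus shCtrl (1 and 0): 3 higher with RLE and with DESeq2, 2 and 2 with no filter, 1 lower with the 5-CPM filter and limma (+ 1), 2 lower with the replicate block, 0 higher over 0 to 3 h, and 4 lower with GC removed. For shMETTL14 minus shCtrl (1 and 1), 0 were lower with RLE and over 1 to 6 h, 2 lower with library-size scaling, no filter, limma (+ 0.1) and the replicate block, 0 and 3 with limma (+ 1), 0 and 0 over 0 to 3 h, and 2 and 3 with GC removed. For shSETD2 minus shMETTL14 (2 and 1), 0 were lower with RLE, library-size scaling, DESeq2 and both limma fits, 4 and 0 with no filter, 3 lower with the 5-CPM filter, 0 and 0 over 0 to 3 h, 1 and 0 over 1 to 6 h, and 6 lower with GC removed. The cause was not tested.

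Leaving out 1 library gave, for shSETD2 against shCtrl, 8 to 13 higher and 3 to 5 lower; for shMETTL14 against shCtrl, 16 to 19 and 1 to 1; for shSETD2 against shMETTL14, 3 to 5 and 13 to 16. Slopes gave 14 to 20 and 13 to 13 in shSETD2, 17 to 19 and 12 to 13 in shMETTL14, and 15 to 18 and 11 to 13 in shCtrl. Slope differences gave 0 to 7 and 0 to 3 for shSETD2 minus shCtrl, 0 to 2 and 0 to 1 for shMETTL14 minus shCtrl, and 0 to 3 and 0 to 2 for shSETD2 minus shMETTL14.

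Signs turned as follows, with library-size scaling, limma (+ 0.1) and limma (+ 1) in this order where 3 values are given. At 0 h TRIM25 in shSETD2 against shCtrl had -0.028765, -0.028272 and -0.026993, and ADAR in shSETD2 against shMETTL14 -0.065293, -0.065081 and -0.063594. Slopes of IFI35 in shCtrl were -0.0005375, -0.002593 and -0.0022662, and in shMETTL14 -0.008265, -0.006871 and -0.0062624, with -0.001072 over 1 to 6 h. In shMETTL14 OAS1 had -0.022298, -0.02194 and -0.017325 and ADAR -0.0016509, -0.0016117 and -0.0015799. OAS3 in shSETD2 against shMETTL14 had -0.20143 with library-size scaling. Over 0 to 3 h the slope of TRIM25 was 0.0051758 in shSETD2, 0.039908 in shMETTL14 and 0.039984 in shCtrl, that of PARP9 0.0018934 and PARP14 0.042485 in shMETTL14, and that of TRIM22 -0.040713 in shCtrl. IFI27 in shMETTL14 had -0.011946 over 1 to 6 h.

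The labels tie same-numbered libraries to no shared culture or day, and their deviations correlated at 0.036 for shSETD2 with shCtrl and -0.116 for shMETTL14 with shCtrl at 0 h, and from -0.191 to 0.633 (median 0.157) over all pairs of groups. The replicate block gave 16 and 6 at 0 h for shSETD2, and 23 and 1 for shMETTL14 with either pairing. Genes under about 1 CPM, such as OAS2, IFI27 and HERC5, are limited by depth.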
